A study of Nicotiana tabacum with 9 samples.

Results

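The sugar genes examined here are 6 tobacco genes that carry a name in the RefSeq gene table: the hexokinase genes *Hxk1a* (GeneID:107807808) and *Hxk1* (GeneID:107797523), the fructokinase genes *FRK2* (GeneID:107818999) and *FRK4* (GeneID:107774766), the sucrose-phosphate phosphatase gene *SPP1* (GeneID:107767908) and the sucrose transporter gene *SUT3* (GeneID:107814196). They were taken by identifier from the FPKM tables (a read level corrected for transcript length and for the size of the library) and are 6 of the 76785 genes listed there. The 9 RNA-seq libraries came from pollen of *Nicotiana tabacum* cv. Petite Havana SR1, with 3 each from wild type (WT) plants, *ATG2*-silenced plants and *ATG5*-silenced plants. Both silenced groups are RNA interference (RNAi) plants, in which 1 autophagy gene is silenced. ATG2 is a lipid transfer protein that extends the autophagosome membrane, and ATG5 is joined to ATG12 in a complex that helps attach ATG8 to that membrane. The labels give the stage as bicellular pollen. Plants of all 3 genotypes were grown in a glasshouse at 25 °C with 12 h of daylight. The promoter of the silencing constructs, the number of transformed lines and the number of plants behind each library are not given in the sources used here. The study calls the libraries independent biological replicates, and the comparisons ask how the silencing of each gene alters the pollen transcriptome.

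Pollen takes up sugars from its surroundings and also carries its own stores. Sucrose transporters such as SUT3, a pollen-specific carrier described in tobacco, bring sucrose into the cell together with protons. Invertases and sucrose synthase split sucrose, and hexokinases and fructokinases phosphorylate the glucose and fructose that result, which commits them to glycolysis, starch or cell wall synthesis. In the opposite direction, sucrose-phosphate synthase makes sucrose-6-phosphate and sucrose-phosphate phosphatase removes the phosphate in the last step of sucrose synthesis. Hexokinase 1 of Arabidopsis is also known as a glucose sensor. *FRK2* and *FRK4* bear the names of tomato fructokinase genes, of which *FRK4* is expressed in stamens.

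Before the members were compared, the libraries were checked. *ATG2* (GeneID:107801867) stood at 0.2 to 0.3 FPKM in *ATG2*-silenced and 0.9 to 1.18 FPKM in WT libraries, and *ATG5* (GeneID:107810645) at 0.1 to 0.23 FPKM in *ATG5*-silenced and 1.04 to 1.6 FPKM in WT libraries. In *ATG5*-silenced libraries *ATG2* stood at 0.57 to 0.65 FPKM, below WT as deposited. It overlapped WT after the scaling given below (limma, log2 change -0.27, adjusted p = 0.149). In *ATG2*-silenced libraries *ATG5* stood at 1.3 to 1.8 FPKM and overlapped WT. The 7 pollen marker genes that the table names summed to 27106 to 45094 FPKM per library, and the 15 markers of green tissue to 0.22 to 6.17 FPKM. The pollen sum was 41115 to 45094 FPKM in the *ATG5*-silenced libraries, above the 27106 to 30673 FPKM of the other 6. That sum was carried by *ntp101*, *ntp201* and *ntp805*, which passed the test described next as higher than in WT, while the other 4 of the 7, *PPME1* and the profilin genes *PRO1*, *PRO2* and *PRO3*, passed as lower (log2 changes of -1.04 to -0.33), so that the median of the 7 was -0.33; with quantile normalization *ntp101* was lower as well (-0.25). The green sum was 0.22 to 1.11 FPKM there against 2.8 to 6.17 FPKM in WT and 1.1 to 2 FPKM in *ATG2*-silenced libraries. Their part in the results below was not tested. In bulk pollen, fewer cells with a transcript and less of it per cell cannot be told apart. FPKM are given as deposited. For the tests, each library was divided by a scaling factor (0.751 to 0.791 for *ATG5*-silenced, 1.06 to 1.11 for *ATG2*-silenced and 0.978 to 1.04 for WT libraries), 0.5 was added, and log2 values were fitted with limma. A gene is called here at a Benjamini-Hochberg adjusted p under 0.05 over 27836 tested genes together with a fold above 2 or below 0.5, and it passed the test at the adjusted p alone. All 6 members met the filter of at least 0.5 FPKM in 3 libraries, and each was above that level in every library.

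The 6 genes differed widely in level in WT pollen, and their order was not the same in *ATG5*-silenced pollen. FPKM is a level per transcript length, so the genes can be set side by side. *FRK4* stood highest by far, at 1579 ± 54.1 FPKM in WT (SD, n = 3), and was the transcript of rank 107 among all tested genes there. *FRK2* followed at 308.5 ± 8.34 FPKM. *Hxk1a* (190.0 ± 3.54 FPKM) and *SUT3* (185.2 ± 6.66 FPKM) came next, and their WT libraries overlapped, so that their order is not resolved. *Hxk1* stood at 125.8 ± 2.02 FPKM. *SPP1* was the weakest, at 4.82 ± 0.314 FPKM, a level above that of 66.0% of the tested genes. In *ATG2*-silenced pollen the order of the means was the same, and *Hxk1a* and *SUT3* again overlapped. In *ATG5*-silenced pollen *FRK4* was of rank 55, *SUT3* and *FRK2* overlapped behind it, and *Hxk1a* and *Hxk1* lay below both without overlap. Together the 6 genes made up 0.242% to 0.257% of the FPKM of a WT library, 0.223% to 0.229% in *ATG2*-silenced and 0.279% to 0.318% in *ATG5*-silenced libraries, most of it *FRK4*.

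**Figure D1:**
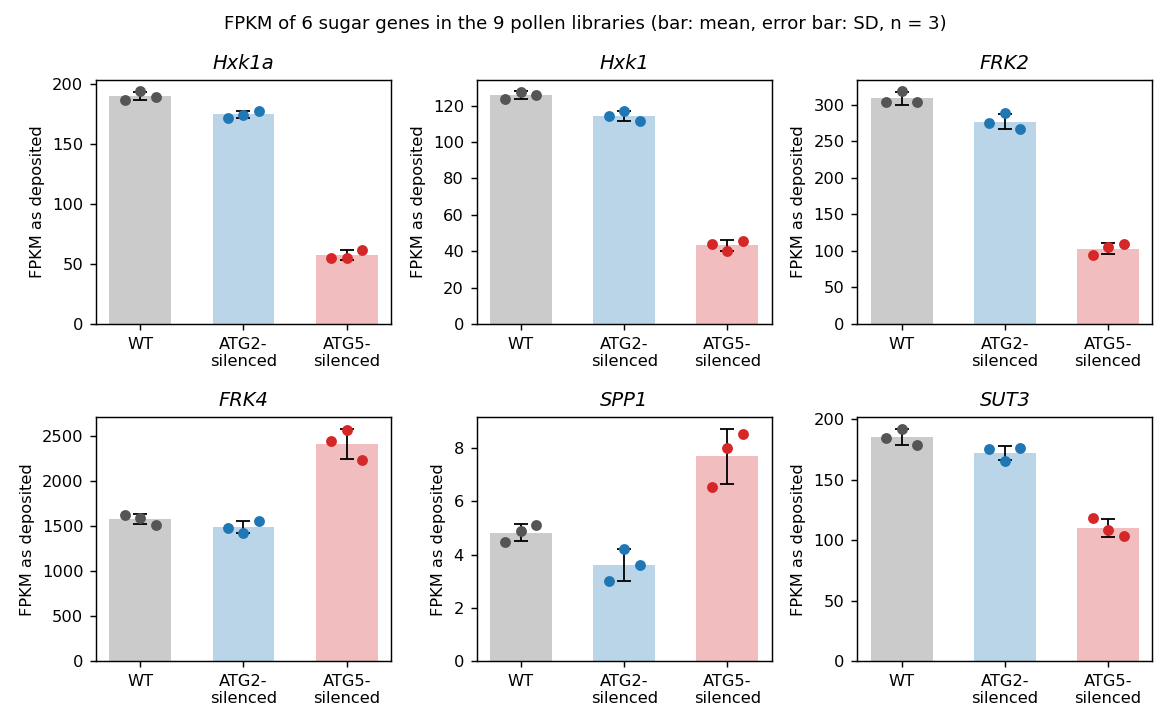
FPKM as deposited (y axis, starting at 0, a scale per gene) of each of the 6 genes in pollen of the 3 genotypes; points are libraries, bars the mean and error bars the SD of 3 libraries. *Hxk1a*, *Hxk1*, *FRK2* and *SUT3* are lowest in *ATG5*-silenced pollen, whereas *FRK4* and *SPP1* are highest there.

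In *ATG5*-silenced pollen, 3 of the 6 genes were called lower than in WT, both hexokinase genes and *FRK2*, where 7.75% of all tested genes were called lower. None of the 6 was called higher, against 14.6% of all tested genes. The log2 changes of *FRK4* (0.98) and *SPP1* (0.96) were just under the fold threshold. By the adjusted p alone 4 were lower and 2 higher, where the background was 24.9% lower and 27.1% higher. Their scaled libraries did not overlap in the same directions, against a background of 29.2% lower and 29.9% higher. In an exact permutation test on FPKM as deposited, each of the 6 reached the smallest p that 3 against 3 libraries allow, 0.10. The median log2 change of the 6 genes was -0.77, and that of all tested genes -0.03. Because 5 of the 6 genes are abundant, the 1300 tested genes with a WT mean of at least 100 FPKM, a limit chosen after the values were seen, are a closer background. Of these, 16.6% were called lower and 10.5% higher, and their median log2 change was -0.18. By the adjusted p alone 47.1% of them were lower and 29.9% higher, shares to which 4 and 2 of 6 are near.

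*Hxk1a*, the more abundant of the hexokinase members, stood at 187.0, 193.9 and 189.1 FPKM in the WT libraries, at 171.7, 174.5 and 177.9 FPKM in the *ATG2*-silenced libraries and at 55.0, 54.9 and 62.1 FPKM in the *ATG5*-silenced libraries. The *ATG5*-silenced libraries were far below the other 6, which lay close together. The mean in *ATG5*-silenced pollen was 30.2% of the WT mean, or 38.9% after scaling. The log2 change against WT was -1.36 in limma, with a standard error of 0.064 and an adjusted p = 8.30e-07; 3.97% of the tested genes had a lower value.

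*Hxk1*, which also encodes a hexokinase, stood at 123.7, 127.7 and 126.0 FPKM in WT, at 114.5, 117.2 and 111.6 FPKM in *ATG2*-silenced and at 43.9, 40.1 and 45.9 FPKM in *ATG5*-silenced libraries. It showed the same picture, with no overlap between *ATG5*-silenced and any other library. It fell to 34.4% of the WT mean (44.4% after scaling), a log2 change of -1.17 (limma, standard error 0.071, adjusted p = 3.11e-06).

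Within a library, the ratio of *Hxk1a* to *Hxk1* does not depend on the scaling between libraries. It was 1.501 to 1.518 in WT, 1.49 to 1.59 in *ATG2*-silenced and 1.25 to 1.37 in *ATG5*-silenced libraries. *Hxk1a* thus lost more of its level than *Hxk1* in every *ATG5*-silenced library, by 0.19 on the log2 scale against WT. This difference is larger than the spread between replicates, but 3 against 3 libraries allow no p below 0.10 (exact permutation test, two-sided, p = 0.10; 0.15 adjusted over the 6 ratio comparisons tested).

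The table names 4 further hexokinase genes, which show how far the fall extended in the family. *Hxk3* (GeneID:107766493) was the only other one above 1 FPKM, with 79.1, 74.7 and 91.3 FPKM in WT, 90.7, 91.4 and 78.0 FPKM in *ATG2*-silenced and 53.5, 57.9 and 67.8 FPKM in *ATG5*-silenced libraries. Its deposited FPKM did not overlap between *ATG5*-silenced and WT pollen, but its scaled values did, and limma gave a log2 change of -0.09 (adjusted p = 0.501, 95% interval -0.32 to 0.14). With FPKM as deposited *Hxk3* passed the test as lower, so whether it shared the fall depends on the scaling. *Hxk4a* and *Hxk6* stayed at or below 0.32 FPKM in every library, and *Hxk4b* is listed at 0 in all 9. The summed FPKM of the 6 named hexokinase genes was 397.7 ± 8.32 in WT, 376.3 ± 7.91 in *ATG2*-silenced and 160.6 ± 13.3 in *ATG5*-silenced pollen (SD, n = 3). These sums are of FPKM as deposited and were not scaled between libraries.

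The make-up of this sum shifted as well. *Hxk3* held 20.5% ± 1.82 of it in WT, 23.0% ± 1.58 in *ATG2*-silenced and 37.1% ± 1.86 in *ATG5*-silenced pollen (SD, n = 3), while *Hxk1a* went from 47.8% ± 1.203 in WT to 35.7% ± 0.364 in *ATG5*-silenced pollen. *Hxk3* stood at 0.385 to 0.483 of the *Hxk1a* level in WT libraries and at 0.973 to 1.09 of it in *ATG5*-silenced libraries, so that the most abundant hexokinase transcript in WT no longer had a clear lead. The log2 of this ratio was higher by 1.28 in *ATG5*-silenced pollen, without overlap. In *ATG2*-silenced libraries the ratio was 0.438 to 0.528 and overlapped WT. The ratios other than those of *Hxk1a* to *Hxk1* and of *FRK2* to *FRK4* were chosen after the values were seen and carry no test.

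The fructokinase genes moved in opposite directions in *ATG5*-silenced pollen. *FRK2* stood at 303.2, 318.1 and 304.1 FPKM in WT, at 274.5, 288.3 and 267.3 FPKM in *ATG2*-silenced and at 94.8, 105.2 and 109.0 FPKM in *ATG5*-silenced libraries. The last 3 were far below all others, at 33.4% of the WT mean (43.0% after scaling). In limma this was a log2 change of -1.21, with a standard error of 0.066 and an adjusted p = 1.76e-06.

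*FRK4* stood at 1623, 1596 and 1519 FPKM in WT, at 1482, 1429 and 1558 FPKM in *ATG2*-silenced and at 2445, 2565 and 2231 FPKM in *ATG5*-silenced libraries. Here the *ATG5*-silenced libraries were the highest, at 153% of the WT mean and 197% after scaling. The log2 change of 0.98 (limma, standard error 0.080, adjusted p = 1.50e-05) passed the test and missed the fold threshold narrowly, with a 95% interval of 0.80 to 1.16. It was above that threshold without *ATG5*-silenced replicate 3 (1.06) and without WT replicate 1 (1.00).

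As a share of both fructokinase transcripts, *FRK4* made up 83.7% ± 0.527 in WT, 84.3% ± 1.07 in *ATG2*-silenced and 95.9% ± 0.485 in *ATG5*-silenced pollen (SD, n = 3). The ratio of *FRK2* to *FRK4* was 0.187 to 0.200 in WT, 0.172 to 0.202 in *ATG2*-silenced and 0.0388 to 0.0488 in *ATG5*-silenced libraries, a difference of -2.19 on the log2 scale from WT, with no overlap (exact permutation test, two-sided, p = 0.10, adjusted 0.15). The sum of both, as deposited and not scaled, was 1887 ± 56.4 FPKM for WT, against 2517 ± 166 FPKM for *ATG5*-silenced pollen, since the gain of *FRK4* in FPKM exceeded the loss of *FRK2*. *FRK2* kept closer to the hexokinase gene: its ratio to *Hxk1a* was 1.61 to 1.64 in WT, 1.503 to 1.652 in *ATG2*-silenced and 1.73 to 1.92 in *ATG5*-silenced libraries.

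**Figure D2:**
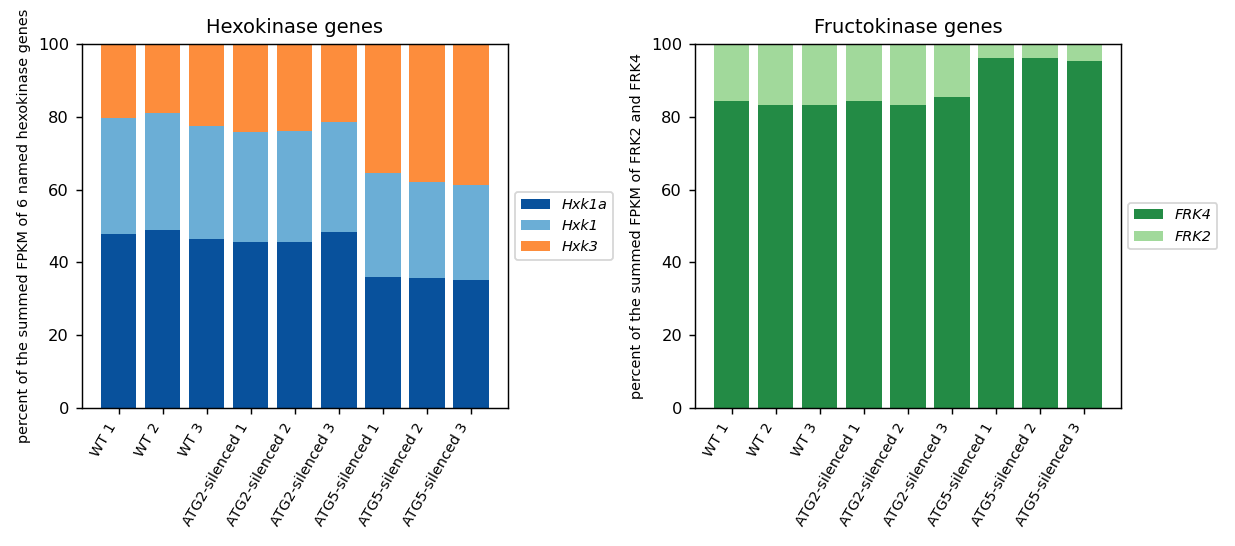
Percent of summed FPKM per library (y axis, as deposited) held by each gene, for the 6 named hexokinase genes (left; *Hxk4a*, *Hxk4b* and *Hxk6* together are too small to see) and for *FRK2* and *FRK4* (right). In the 3 *ATG5*-silenced libraries *Hxk3* holds a larger part of the hexokinase sum, and *FRK2* a smaller part of the fructokinase sum, than in any other library.

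*SPP1* belongs to the last step of sucrose synthesis and *SUT3* to sucrose transport, and they differed in direction in *ATG5*-silenced pollen. *SPP1* stood at 4.48, 4.88 and 5.1 FPKM in WT, at 3.0, 4.2 and 3.6 FPKM in *ATG2*-silenced and at 6.53, 7.98 and 8.54 FPKM in *ATG5*-silenced libraries. The 3 genotypes did not overlap: *ATG2*-silenced libraries were lowest and *ATG5*-silenced libraries highest. Against WT, *SPP1* rose in *ATG5*-silenced pollen to 159% of the WT mean (205% after scaling), a log2 change of 0.96 (limma, standard error 0.13, adjusted p = 2.41e-04). This is just under the fold threshold. It was above with 0.1 added in place of 0.5 (1.02) or without *ATG5*-silenced replicate 1 (1.06).

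*SPP2* (GeneID:107819363), a further sucrose-phosphate phosphatase gene, was more abundant than *SPP1*, with 10.1, 8.74 and 9.8 FPKM in WT, 11.5, 14.5 and 13.6 FPKM in *ATG2*-silenced and 10.03, 10.01 and 9.76 FPKM in *ATG5*-silenced libraries. Its deposited FPKM overlapped between WT and *ATG5*-silenced pollen. After scaling it stood at 134% of the WT mean there (log2 change 0.41, limma, adjusted p = 0.00671), which passed the test short of 2-fold. It did not pass with FPKM as deposited (0.06, adjusted p = 0.664), rescaled to equal totals (0.12, adjusted p = 0.317) or quantile normalized (0.25, adjusted p = 0.0547). The ratio of *SPP1* to *SPP2*, free of this scaling, was 0.442 to 0.558 in WT, 0.261 to 0.290 in *ATG2*-silenced and 0.651 to 0.875 in *ATG5*-silenced libraries. It was thus lowest in *ATG2*-silenced and highest in *ATG5*-silenced pollen, with no overlap between any 2 genotypes.

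*SUT3* stood at 184.6, 192.2 and 178.9 FPKM in WT, at 175.6, 165.6 and 175.9 FPKM in *ATG2*-silenced and at 118.6, 108.3 and 103.7 FPKM in *ATG5*-silenced libraries. The *ATG5*-silenced libraries were lowest, at 59.5% of the WT mean, or 76.8% after scaling. The log2 change of -0.38 (limma, standard error 0.086, adjusted p = 0.00529) was the smallest of the 6 genes and -0.75 with FPKM as deposited, so that its size depends on the scaling by more than 1.5 times.

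**Figure D3:**
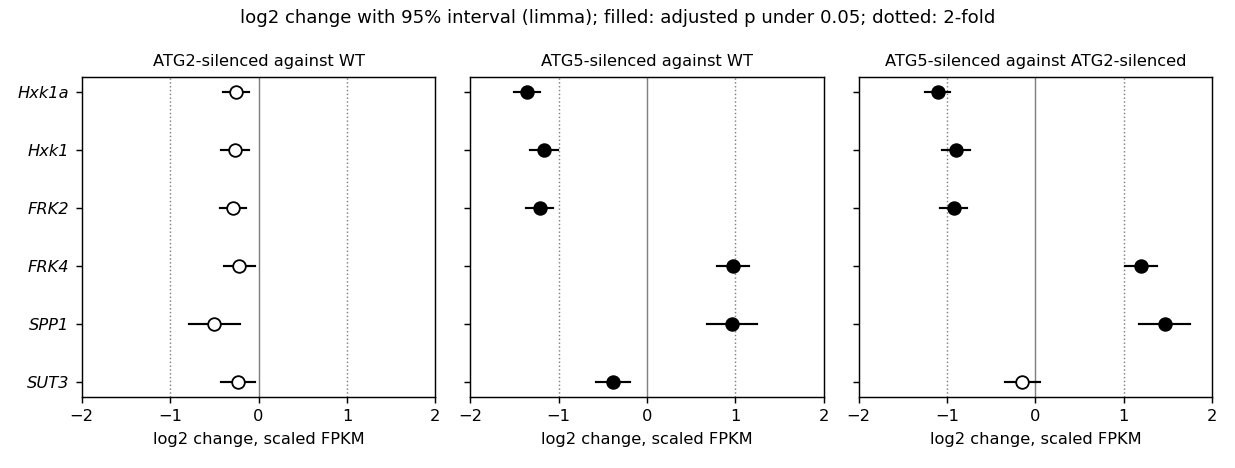
log2 change of scaled FPKM (x axis, limma) with its 95% interval for the 6 genes in the 3 comparisons of genotypes; filled points passed an adjusted p under 0.05, dotted lines mark 2-fold. In *ATG2*-silenced against WT pollen all 6 points are open and lie between -0.50 and -0.22, whereas against WT in *ATG5*-silenced pollen they run from -1.36 to 0.98.

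In *ATG2*-silenced pollen none of the 6 genes passed the test against WT, where 0.639% of all tested genes were called and 1.08% passed the adjusted p. All 6 had lower means than WT. Their log2 changes were -0.29 for *FRK2*, -0.27 for *Hxk1*, -0.25 for *Hxk1a*, -0.23 for *SUT3*, -0.22 for *FRK4* and -0.50 for *SPP1*, with adjusted p from 0.0770 to 0.201 in limma. At an unadjusted p under 0.05 all 6 were lower (limma, 0.00187 to 0.0240), against 8.23% of all tested genes. Scaled libraries of both genotypes did not overlap for any of the 6, against 11.6% of all tested genes in this direction, and *FRK4* overlapped in FPKM as deposited (exact permutation test, p = 0.20, against 0.10 for the other 5). The 1300 abundant genes had a median log2 change of -0.18 in this comparison, close to the values of the 5 abundant members, while that of all tested genes was 0.03. With FPKM as deposited, rescaled to equal totals or quantile normalized, the changes of the 5 abundant members were smaller, from -0.21 to -0.08, and that of *SPP1* was -0.57 to -0.38; none passed. The 95% intervals exclude a change of 2-fold for each of the 6, the widest being -0.78 to -0.21 for *SPP1*.

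Both comparisons use the same 3 WT libraries, so their values are not independent. Compared directly, *ATG5*-silenced and *ATG2*-silenced pollen differed in 5 of the 6 genes. *FRK4* (log2 change 1.19, adjusted p = 4.95e-06) and *SPP1* (1.46, adjusted p = 2.11e-05) were called higher in *ATG5*-silenced pollen, where 14.3% of all tested genes were called higher. *Hxk1a* was called lower (limma, log2 change -1.11, adjusted p = 2.36e-06), where 9.66% of all tested genes were. *Hxk1* (-0.90, adjusted p = 1.30e-05) and *FRK2* (-0.93, adjusted p = 7.14e-06) passed the test short of 2-fold, so that 2 genes passed as higher and 3 as lower, where 26.8% and 27.5% of all tested genes did. *SUT3* was the exception, with a log2 change of -0.15 (limma, adjusted p = 0.177, 95% interval -0.34 to 0.05). It passed under the 3 other scalings, with values between -0.64 and -0.35. For *SPP1* and *FRK4* this comparison was larger than either comparison with WT. Both had means below WT in *ATG2*-silenced pollen, where neither passed the test, and above it in *ATG5*-silenced pollen.

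The tables with 1 decimal are those of *ATG2*-silenced pollen and WT replicate 3, and the other 5 have 2 decimals. Whether this marks a batch is not stated. No *ATG5*-silenced table shares its decimals with an *ATG2*-silenced one, so in their direct comparison genotype and decimals cannot be told apart. Within the 5 tables of 2 decimals, *ATG5*-silenced pollen stood after scaling at 0.380 of the mean of WT replicates 1 and 2 for *Hxk1a*, 0.435 for *Hxk1*, 0.418 for *FRK2*, 1.90 for *FRK4*, 2.07 for *SPP1* and 0.740 for *SUT3*. Within the tables of 1 decimal, where WT has a single library and no test can be made, *ATG2*-silenced pollen stood at 0.671 of WT replicate 3 for *SPP1* and at 0.865 to 0.934 for the other 5 genes. For those 5 genes WT replicate 3 lay below both other WT libraries after scaling. Their ratios were thus nearer to 1 than the scaled ratios to the mean of all WT libraries, which were 0.818 to 0.860. The directions were those of the full comparisons with WT for all 6 genes.

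Of the other genes named for sugar phosphorylation, sucrose metabolism and sugar transport, 10 were listed and 3 met the filter: *Hxk3*, *SPP2* and *SUT1*. In *ATG5*-silenced pollen 1 of the 3 passed the adjusted p, *SPP2*, which was higher, and none was called. The median log2 change of the 3 was -0.07. Which of them passed depended on the scaling: with FPKM as deposited *SPP2* did not pass, while *Hxk3* and *SUT1* passed as lower. In *ATG2*-silenced pollen none of the 3 passed, 1 having an unadjusted p under 0.05 (*SPP2*, log2 change 0.32, limma, adjusted p = 0.138), and none passed between the silenced genotypes in limma, 0 of them at an unadjusted p under 0.05. *SUT1* (GeneID:107831792), a sucrose transporter of the plasma membrane, stood at 1.96 to 2.38 FPKM in WT, 2.5 to 3.0 FPKM in *ATG2*-silenced and 1.53 to 1.67 FPKM in *ATG5*-silenced libraries, far below *SUT3*, with a log2 change of -0.07 in *ATG5*-silenced pollen (limma, adjusted p = 0.633). Its deposited FPKM did not overlap between *ATG5*-silenced and WT pollen, but its scaled values did. The other 7 stayed at or below 0.6 FPKM in all libraries and are named here after their values were seen. Among them *Nin88* (GeneID:107773961), an extracellular invertase gene known from tobacco anthers, had 0.2 to 0.34 FPKM in WT, 0.4 to 0.6 FPKM in *ATG2*-silenced and 0.11 to 0.18 FPKM in *ATG5*-silenced libraries. The sucrose-phosphate synthase genes *SPSA* and *SPSC*, whose enzyme supplies the substrate of SPP, did not exceed 0.1 FPKM, and the monosaccharide transporter gene *MST1* is listed at 0 throughout. The gene table does not name every gene of these families, so unnamed copies are not covered.

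Across the 9 libraries, the 6 genes fell into sets by profile, which the genotype differences dominate. On the log2 scale, *Hxk1a*, *Hxk1* and *FRK2* correlated with each other at Pearson's r of 0.991 to 0.996, and *FRK4* with *SPP1* at 0.938, while r between these sets was -0.928 to -0.813. *SUT3* stood between them, at 0.780 to 0.813 with the first and -0.535 to -0.527 with the second. These values describe 9 libraries of 3 genotypes, in which most of the variation lies between *ATG5*-silenced pollen and the rest, and carry no test.

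Among 228 other tested genes with a name and at least 5 FPKM in the mean, the profiles most like *Hxk1a* were those of *Hxk1*, of the small GTPase gene *Rab8-5* (r = 0.995) and of *FRK2*. The nearest to *Hxk1* were *Hxk1a*, *Rab8-5* and *FRK2*, and the nearest to *FRK2* were *Hxk1a*, *Hxk1* and *Rab8-5*. *Rab8-5* (GeneID:107767066) had a log2 change of -0.80 in *ATG5*-silenced pollen. Among those nearest to *FRK4* were the cullin gene *cul1B* (r = 0.990) and the pollen tube gene *Risap* (0.982). Among those nearest to *SPP1* were the xylosyltransferase gene *xylt* (0.971) and the catalase gene *cat3* (0.966). Nearest to *SUT3* were the chloride channel gene *C1C-Nt1* (0.961), the S-adenosylmethionine synthetase gene *SAMS1* (0.958) and the phospholipase C gene *PLC3* (0.953), with log2 changes of -0.39, -0.52 and -0.43 in *ATG5*-silenced pollen.

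**Figure D4:**
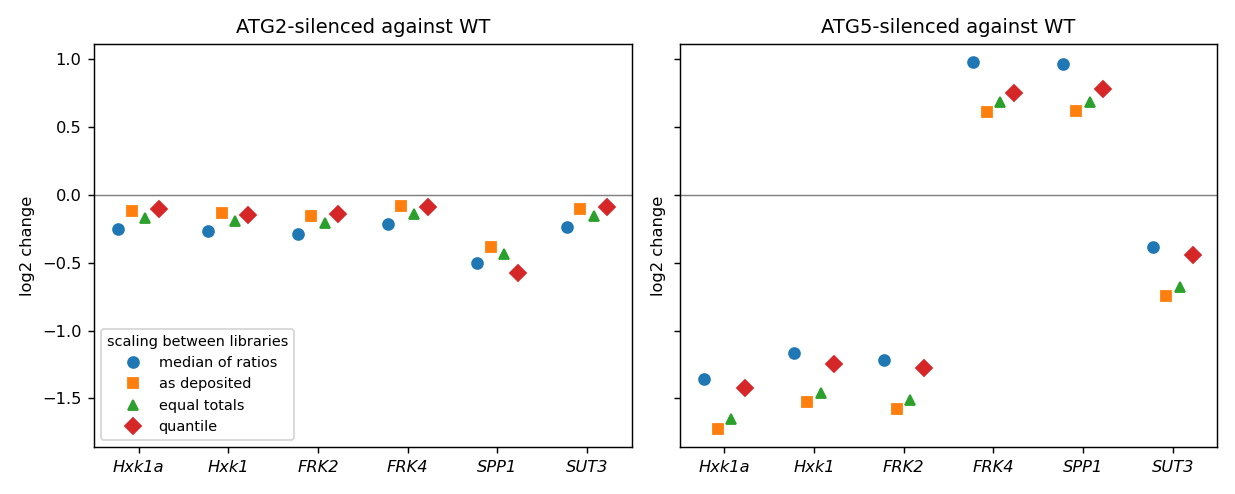
log2 change against WT (y axis) of the 6 genes in *ATG2*-silenced (left) and *ATG5*-silenced pollen (right) under 4 ways to scale the libraries. In *ATG5*-silenced pollen *FRK4* and *SPP1* lie above 0 and the other 4 genes below 0 under each scaling, and FPKM as deposited gives the lowest value of every gene there.

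The directions in *ATG5*-silenced pollen held under each way of scaling the libraries, although the sizes did not. With FPKM as deposited, rescaled to equal totals or quantile normalized, all tested genes had a median log2 change of -0.30, -0.25 and -0.17 in this comparison, against -0.03 here. *Hxk1a* then had log2 changes of -1.72, -1.65 and -1.42, *FRK4* of 0.61, 0.68 and 0.75 and *SPP1* of 0.61, 0.68 and 0.78. All 6 genes passed the adjusted p under these scalings. Relative to the median of all genes, *FRK4* lay 0.91 to 1.01 and *SPP1* 0.91 to 1.00 above it under the 4 scalings. *Hxk1a* lay at -1.43 to -1.26 from it.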

How the data were processed

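RNA from 3 pollen samples per genotype was sequenced on an MGIseq2000. The authors aligned the reads to the Ntab-TN90 tobacco genome with HISAT2 and to its transcripts with Bowtie 2, and computed FPKM with RSEM (versions not given in the sources used here), and these FPKM, with 1 or 2 decimals, were deposited per library. RSEM divides reads shared by near-identical copies, so levels of single genes of this allotetraploid are uncertain where such copies exist. The files used hold no counts, so the reads behind each value are not known from them and no counting intervals are given. Symbols came from the RefSeq gene table (1081 named genes in the files); its assembly is that of another cultivar, so no coordinates are printed. In each file 1 line without a gene was left out.

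Libraries were scaled by median of ratios over the 14192 genes above 1 FPKM in every library. Genes with at least 0.5 FPKM in 3 of the 9 libraries were tested on log2(scaled FPKM + 0.5), which understates changes of low genes, with limma 3.58.1 (trend and robust; statmod 1.5.0, R 4.3.3), all 9 libraries in 1 fit, as a two-sided test with Benjamini-Hochberg adjustment. The authors used DESeq2, which needs counts. Ratios and FPKM were compared by exact permutation. Figures used Python 3.11.15 and matplotlib 3.10.9. The limma step was tested on simulated data.

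By rule the text names the 6 members, the genes of a list of 10 other sugar genes with a mean of at least 1 FPKM, the 3 named genes with the profile nearest to each member, and the silenced genes; 1 gene that this rule takes is not reported here. The pollen markers and the sugar genes under 1 FPKM fall outside it and were named after their values were seen. The members and lists were chosen with earlier results of these data known. Alternatives were other added values, filters, scalings, rounding, variance models, samples, a replicate block and leaving out each library.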

Additional observations from a re-analysis of the deposited data

How the results depend on the processing

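Each of the 6 genes kept its direction in all 3 comparisons under the 20 alternatives run for each, and no gene lost a passed test. In *ATG2*-silenced against WT pollen none of the 6 passed under any of them (limma, lowest adjusted p = 0.0517, for *FRK2*). In *ATG5*-silenced against WT pollen all 6 passed under each (limma, highest adjusted p = 0.0230, for *SUT3*). *SUT3* differed between the silenced genotypes with FPKM as deposited (-0.64, adjusted p = 4.06e-05), rescaled to equal totals (-0.52, adjusted p = 1.97e-04) and quantile normalized (-0.35, adjusted p = 0.00211). Under these 3 scalings *Hxk1* (-1.39, -1.27 and -1.10) and *FRK2* (-1.42, -1.30 and -1.14) were called in that comparison and *FRK4* was not (0.69, 0.82 and 0.84), nor *SPP1* as deposited (1.00).

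With FPKM as deposited, the list of 10 other sugar genes had 2 genes past the adjusted p in *ATG5*-silenced against WT pollen, both lower. These were *Hxk3* and *SUT1*, as *SPP2* did not pass there (limma, adjusted p = 0.664). Quantile normalized, the list had 0 in place of 1. With equal totals the count stayed at 1, but *SPP2* again did not pass (limma, adjusted p = 0.317). Between the silenced genotypes the list had 3 with FPKM as deposited, 3 with equal totals and 1 with no filter on low values, all lower, in place of 0. Over all tested genes, 178 were called in *ATG2*-silenced against WT pollen, and 54 to 322 when 1 library was left out: 322 without WT replicate 3 and 54, 56, 75, 89 and 72 without *ATG2*-silenced replicates 1, 2 and 3 and WT replicates 1 and 2. Of the calls in *ATG5*-silenced against WT pollen 65.3% were higher, against 41.9%, 46.2% and 53.7% under the scalings in the order above, and between the silenced genotypes 59.8%, against 30.0%, 36.4% and 51.8%.

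Same-numbered libraries did not deviate together (r from -0.044 to 0.053), and not every library correlated best with its own number. With the replicate number as a block, no call of the 6 genes changed, and 144, 6203 and 6688 genes were called in the 3 comparisons, against 178, 6214 and 6683 without it. Without read numbers per gene little can be said of the genes under 1 FPKM, whose values rest on 1 or 2 decimals.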
